A study of Mus musculus with 4 samples.

Results

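The genes described here were 10 of the 24532 genes measured in mouse articular cartilage, chosen by symbol for their known function in removing reactive oxygen species or binding metals. Earlier results of these data were known when they were chosen. They comprised the metallothioneins Mt1 and Mt2, the superoxide dismutases Sod1, Sod2 and Sod3, the peroxide-removing enzymes Gpx1, Gpx3 and Cat, and the enzymes Hmox1 and Nqo1. Gene expression was measured by RNA sequencing in 4 groups of wild-type C57BL/6 mice with 1 library each, namely sham and injured cartilage of young mice (young sham and young injured) and of adult mice (adult sham and adult injured). Young mice were 3 weeks old, whereas the age of adult mice was 10 weeks in the study's methods and 12 or 14 weeks in the sample labels. Injured cartilage was collected 3 days after full-thickness cartilage injury (FTCI) of the patellar groove of the knee, although a different operation, DMM (destabilization of the medial meniscus), stands in the labels of these samples. The label of the adult sham library gives days 3 to 14, and those of the other libraries day 3. In comparisons with adult sham cartilage, collection time therefore cannot be told apart from injury or age. No deletion or drug treatment is named for any of the 4 groups. Each library was made from a pool of 10 injured or 5 uninjured mice, so no spread between animals could be calculated, no test was possible, and no difference given here has a replicate check.

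Superoxide is formed by mitochondria and by the NADPH oxidase of phagocytes, and superoxide dismutases convert it to hydrogen peroxide. Catalase and the glutathione peroxidases then reduce hydrogen peroxide to water, the latter with glutathione as the electron donor. Metallothioneins are small, cysteine-rich proteins that bind zinc and copper, and their transcription is driven by the zinc-sensing factor MTF1 and by glucocorticoids. HMOX1 degrades heme and NQO1 reduces quinones, and the genes of both are targets of the transcription factor NRF2, which is held in check by KEAP1. In cartilage, oxidants are known to be released by chondrocytes and by infiltrating cells after mechanical damage.

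All 10 members were above 0 FPKM in all 4 libraries. FPKM are fragments normalised to the length of the transcript and the depth of the library, so levels of different genes can be compared on this scale. The low values of the table fell on regular steps that correspond to between 25600000 and 30800000 fragments per library, if 1 step is 1 fragment. The labels call the cells chondrocytes, and 10 of 10 chondrocyte marker genes reached at least 1 FPKM in each library, with a summed level of 18914, 15504, 35161 and 20695 FPKM in the sham and injured libraries of young and then of adult mice. Chad alone made up 20538 FPKM of the adult sham sum, and 5 of the 10 chondrocyte markers were at least 2-fold lower and 2 higher in adult than in young sham cartilage (median log2 ratio -1.24). Genes of other cells were also present, among them macrophage markers with summed levels of 191.8, 1905, 325.1 and 1651 FPKM and erythroid markers with 9682, 18448, 6956 and 3032 FPKM in the same order. In such bulk samples, fewer cells of a type and less RNA per cell cannot be told apart.

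Mt1 and Mt2 are neighbours in a cluster of 4 metallothionein genes on chromosome 8 that spans 43.1 kb of the genome build GRCm38.p6, with 5315 bases between Mt2 and Mt1. Their promoters are shown because these genes had the highest and the third highest injury ratios among the members, and because MTF1 binds a short element in metallothionein promoters. The core of this metal response element was searched as TGCACNC and TGCGCNC, and the core of the antioxidant response element bound by NRF2 as TGACNNNGC, on both strands, in windows from 250 bases before to 50 bases after each annotated transcript start. Sequences and starts came from RefSeq (GRCm38.p6), and 8 of the 10 members had a window, all but Sod3 and Hmox1. The 250 bases before the Mt2 start at chr8:94172368-94172617 and 27 and 29 bases on the 2 sides of the Mt1 start at chr8:94179056-94179082 and chr8:94179089-94179117 follow, all from the + strand and with the matches in capitals, of which GTGTGCA is a match read on the other strand.
Mt2, 250 bases before the start: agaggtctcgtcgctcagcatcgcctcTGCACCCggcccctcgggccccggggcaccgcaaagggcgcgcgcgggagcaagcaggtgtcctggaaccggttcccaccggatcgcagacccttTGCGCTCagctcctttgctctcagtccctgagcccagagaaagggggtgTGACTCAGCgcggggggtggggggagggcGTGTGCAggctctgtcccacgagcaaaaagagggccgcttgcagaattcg
Mt1, stretch before the start: ggtcccgctgTGCACACtggcgctcca
Mt1, stretch after the start: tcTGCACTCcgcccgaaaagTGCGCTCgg

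The Mt2 window held 4 matches to the metal response element core, at positions -223, -128, -50 and 4 from the start base counted as 0, of which the last lies outside the printed stretch. The Mt1 window held 3 matches, at positions -23, 2 and 20. The Mt1 start used for these positions, chr8:94179089, lies inside the range of the gene, chr8:94178883-94180327. The positions therefore hold for this annotated start only, and whether the letters printed after it are transcribed was not tested. Among 32851 promoter windows of the same length, 25.7% held at least 1 match, 1.97% at least 3 and 0.517% at least 4. None of the 6 other members with a window (Sod1, Sod2, Gpx1, Gpx3, Cat and Nqo1) held a match to this core. The antioxidant response element core matched once in Mt2 at position -79 and once in Sod1 at position -56, against 12.4% of all windows with at least 1 match, and the letters of the Mt2 match contain TGACTCA, the element bound by AP-1. A match describes these letters and is not a measured binding site, and the lack of one says only that the letters were not in this window.

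**Figure D1:**
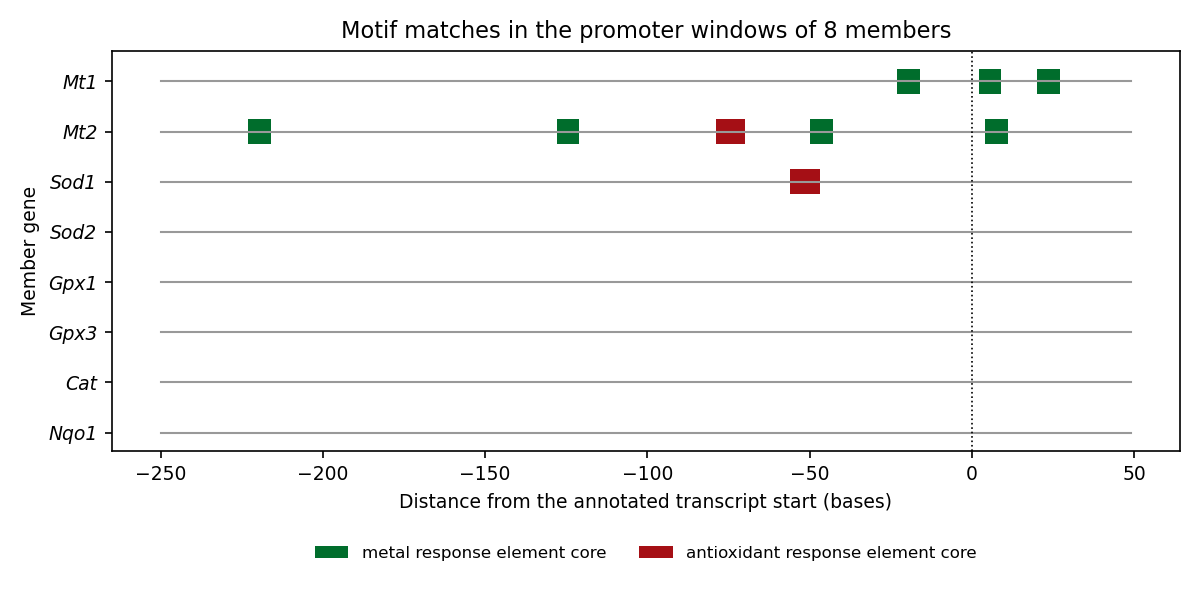
Matches to the metal response element core (green) and the antioxidant response element core (red) in the promoter windows of 8 members, plotted by distance in bases from the annotated transcript start (dotted line). Mt2 holds 4 and Mt1 3 metal response element matches, and the other members hold none.

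The metallothioneins showed the largest range of levels among the members. Mt1 (Entrez Gene 17748, chr8:94178883-94180327) had 13.5 FPKM in sham and 167.6 in injured cartilage of young mice and 33.8 and 421.0 in that of adult mice. Mt2 (Entrez Gene 17750, chr8:94172618-94173567) had 4.32, 159.9, 12.5 and 529.7 FPKM in the same order. For both genes the injured library of each age was far above both sham libraries, and within sham as within injured cartilage the adult library was above the young one. The ratio of FPKM + 1 between injured and sham cartilage, the scale used for all folds given here, was 11.6-fold in young and 12.1-fold in adult mice for Mt1. For Mt2 it was 30.2-fold in young and 39.5-fold in adult mice. The added 1 FPKM understates changes of low genes such as Mt2 in young sham cartilage, which rested on about 58 fragments if 1 step is 1 fragment.

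The balance between the neighbouring genes also differed between sham and injured cartilage. Mt1 exceeded Mt2 by 3.12-fold in young sham and by 2.72-fold in adult sham cartilage, in plain FPKM. In young injured cartilage the ratio of Mt1 to Mt2 was 1.05, and in adult injured cartilage it was 0.795, so Mt2 was the more abundant of the pair only there. The summed level of both genes was 17.8 FPKM in sham and 327.6 in injured cartilage of young mice and 46.3 and 950.6 in that of adult mice. By rank among all genes of a library, Mt2 stood at 8659 without and 424 with injury in young mice, and at 3862 and 146 in adult mice. Such ranks within a library do not depend on how libraries are scaled to each other. The ratios stay the same when each library is multiplied by a factor of its own, but not under quantile normalization.

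**Figure D2:**
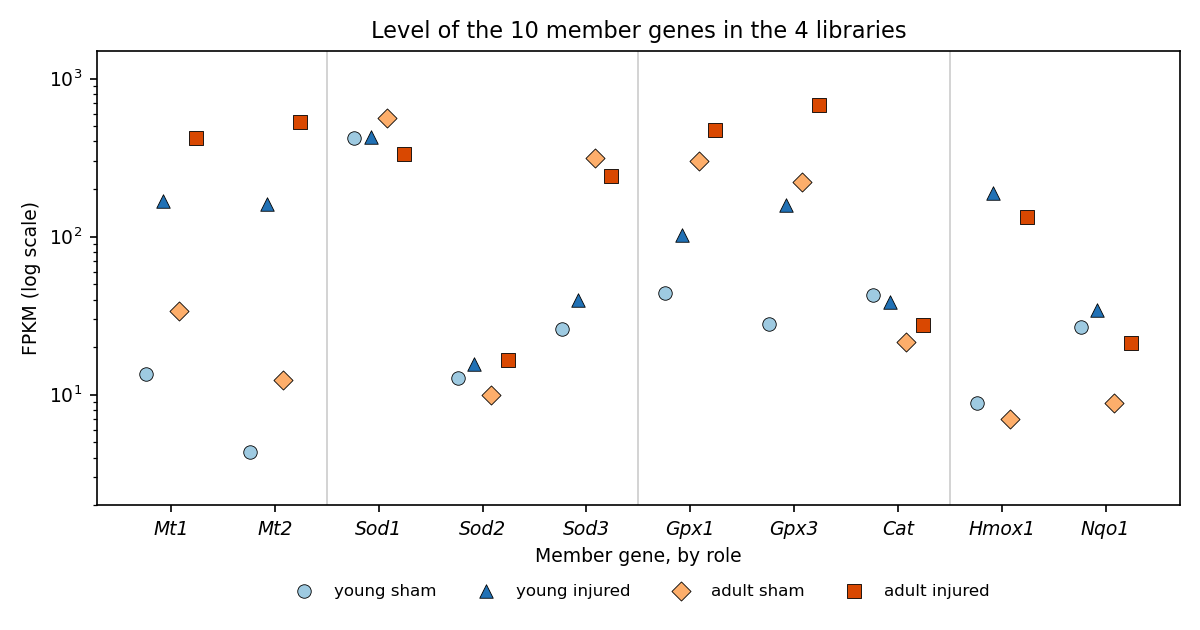
Level of each member in FPKM (log axis) in the young sham (circles), young injured (triangles), adult sham (diamonds) and adult injured (squares) library, with 1 pooled library per group and therefore no error bars. Mt1, Mt2, Sod2, Gpx1, Gpx3, Hmox1 and Nqo1 lie higher in the injured library at both ages, and Sod3, Gpx1 and Gpx3 lie higher in both adult libraries than in both young ones.

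Among the superoxide dismutases, Sod1 was the most abundant in every library. Sod1 (Entrez Gene 20655, chr16:90220762-90226333), which encodes the copper-zinc enzyme of the cytosol, had 419.7 FPKM in sham and 425.3 in injured cartilage of young mice and 562.0 and 334.4 in that of adult mice. The young libraries hardly differed (log2 ratio 0.02, with a sign that turned to -0.10 after rescaling to an equal sum and to -0.18 after quantile normalization). In adult mice Sod1 was lower in injured cartilage, with a log2 ratio of -0.75 that reached -1.09 after median-of-ratios scaling. Sod2 (Entrez Gene 20656, chr17:13007839-13018119), the manganese enzyme of mitochondria, had 12.8, 15.6, 9.96 and 16.6 FPKM in the same order. It stayed below a 2-fold difference between any 2 libraries compared, with log2 injury ratios of 0.27 (young) and 0.68 (adult). Of the 31-base words in Sod2 transcripts, 26.6% also occur in another gene, with Rps6ka2 sharing the most, so fragments may have been shared between genes.

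Sod3 (Entrez Gene 20657, chr5:52363804-52369738), the secreted enzyme of the extracellular matrix, was set apart by age rather than by injury. Its level was 25.9 FPKM before and 39.8 FPKM after injury in young mice, and 314.6 and 243.6 FPKM in adult mice. Both adult libraries lay far above both young libraries, by 11.7-fold in sham and 5.99-fold in injured cartilage. The share of Sod3 in the FPKM of the 3 superoxide dismutases was 5.65% in sham and 8.28% in injured cartilage of young mice and 35.5% and 41.0% in that of adult mice. The share of Sod1 was 91.6%, 88.5%, 63.4% and 56.2% in the same order, and Sod2 was at or below 3.24% in every library. On the log2 scale the injury ratio of Sod3 was 0.60 for young and -0.37 for adult mice.

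Gpx1 and Gpx3 were higher in injured than in sham cartilage and higher in adult than in young cartilage, although Gpx1 did not reach 2-fold after injury in adult mice. Gpx1 (Entrez Gene 14775, chr9:108339080-108340342), the intracellular selenoenzyme, had 43.8 FPKM in sham and 103.0 in injured cartilage of young mice and 302.3 and 469.7 in that of adult mice. Gpx3 (Entrez Gene 14778, chr11:54902854-54910387), the secreted form found in plasma, had 28.0, 159.1, 222.6 and 676.9 FPKM in the same order. For both genes adult sham cartilage was already above young injured cartilage. The injury ratio of Gpx1 was 2.32-fold in young and 1.55-fold in adult mice, and that of Gpx3 was 5.53-fold and 3.03-fold. Gpx3 was below Gpx1 in both sham libraries, with a ratio of 0.638 in young and 0.736 in adult cartilage, and above it in both injured libraries, with 1.55 and 1.44.

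Cat (Entrez Gene 12359, chr2:103453904-103485153), the peroxisomal catalase, did not follow Gpx1 and Gpx3. It had 42.7 FPKM in sham and 38.3 in injured cartilage of young mice and 21.7 and 27.8 in that of adult mice. Both young libraries were above both adult libraries, and the injury ratio was small at each age, with log2 values of -0.15 for young and 0.34 for adult mice. After median-of-ratios scaling the adult value was 0.02. Red blood cells are rich in both catalase and GPX1, and 7 of 9 erythroid markers were at least 2-fold lower in adult than in young sham cartilage, with Hbb-bs higher (2868 FPKM against 105.7 FPKM), and 9 of 9 were lower in adult than in young injured cartilage. Cat was likewise lower in both adult libraries, while Gpx1 was higher. The part of erythroid cells in either result was not tested.

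Hmox1 (Entrez Gene 15368, chr8:75093618-75100593) was the member set apart by injury with little difference by age. Its level was 8.90 FPKM without and 189.8 FPKM with injury in young mice, and 6.98 and 132.9 FPKM in adult mice. Both injured libraries were thus far above both sham libraries, by 19.3-fold in young and 16.8-fold in adult mice. Nqo1 (Entrez Gene 18104, chr8:107388225-107403205) had 27.0, 34.5, 8.83 and 21.3 FPKM in the same order. Here the adult sham library stood apart as the lowest, and the injury ratio was 1.27-fold in young and 2.27-fold in adult mice. The level of Hmox1 relative to Nqo1 was 0.330 in young sham and 0.791 in adult sham cartilage, compared with 5.51 and 6.24 in young and adult injured cartilage.

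To summarise the response to injury at each age, a gene was counted as different at 2-fold or more on the log2 scale of FPKM + 1. In young cartilage 5 of the 10 members were higher after injury (Mt1, Mt2, Gpx1, Gpx3 and Hmox1), against 4.57% of the 18181 genes above 0 in at least 1 library. No member was lower in young injured cartilage, against 1.27% of all genes. In adult cartilage 5 of 10 were higher (Mt1, Mt2, Gpx3, Hmox1 and Nqo1), against 6.9% of all genes, and none was lower, against 1.46%. A gene below 1 FPKM in every library cannot reach 2-fold on this scale, which lowers the shares of all genes. Over the 13209 genes at 1 FPKM or more in some library, 6.28% were higher and 1.74% lower in young injured cartilage. In adult injured cartilage these shares were 9.5% and 2.01%. Over the 10 members the median log2 ratio was 0.91 for young and 0.93 for adult mice, whereas over the 10891 genes at or above 1 FPKM throughout it was -0.04 and 0.23. Median-of-ratios scaling, which removes most of that adult shift, gave 4.41% of all genes higher and 2.90% lower in adult injured cartilage, and the share of higher genes among those called fell from 82.5% to 60.3%. Under it Nqo1 was at a log2 ratio of 0.87 in adult mice, below 2-fold, and Sod1 passed 2-fold as lower. Mt1, Mt2, Gpx3 and Hmox1 remained above 2-fold at both ages with each of the 3 other scalings.

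**Figure D3:**
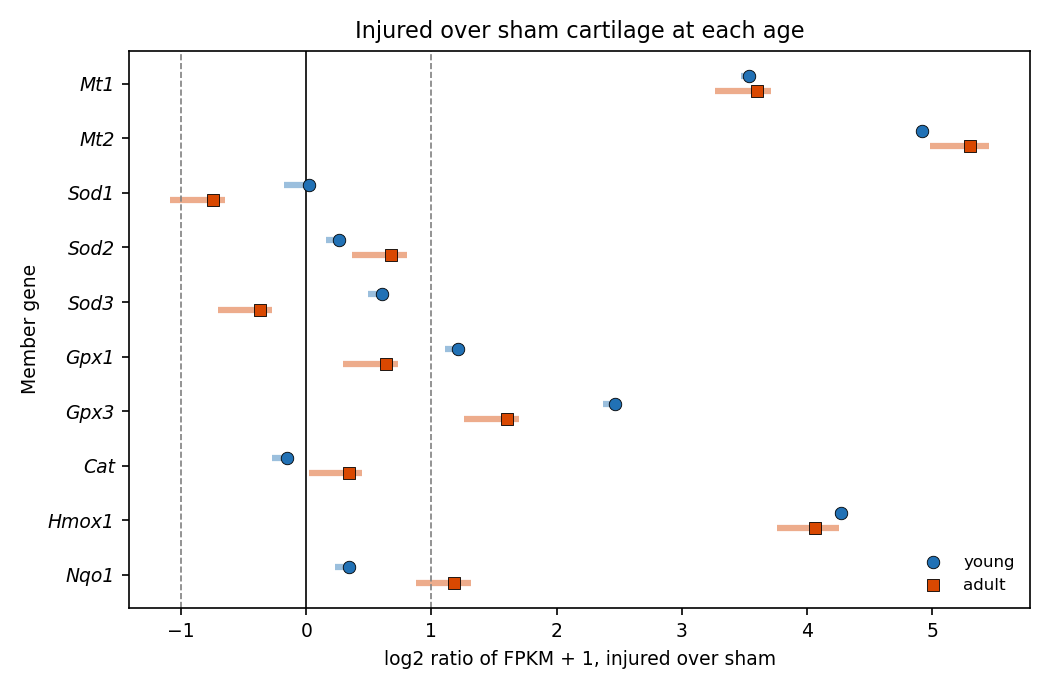
Log2 ratio of FPKM + 1 between injured and sham cartilage for each member, in young (circles) and adult (squares) mice. Bars span the values over the deposited scale and 3 other scalings, and dashed lines mark 2-fold. Mt2, Hmox1 and Mt1 lie farthest to the right at both ages, Sod3 and Cat lie on opposite sides of 0 at the 2 ages, and Sod1 in young mice crosses 0 with the scaling.

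The size of the injury ratio was also compared between ages, as the young log2 ratio minus the adult one. On the deposited scale the differences were below 1 in log2 for all 10 members and ranged from -0.84 for Nqo1 to 0.97 for Sod3. Other scalings took 4 members past 1, namely Sod3 (1.29), Gpx3 (1.18) and Sod1 (1.09) with median-of-ratios scaling, Sod3 (1.05) with quantile normalization and Nqo1 (-1.09) with rescaling to an equal sum. Gpx3 (0.87), Sod1 (0.77) and Gpx1 (0.58) had larger ratios in young mice, and Cat (-0.50), Sod2 (-0.42) and Mt2 (-0.38) in adult mice. The differences of Mt1 (-0.06) and Hmox1 (0.20) were the smallest, and each changed its sign with the scaling, to 0.25 for Mt1 after median-of-ratios scaling and to -0.03 for Hmox1 after rescaling to an equal sum. None of these differences could be tested with 1 library per group.

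The same genes were then compared between ages. In sham cartilage 5 of 10 members were at least 2-fold higher in adult than in young mice (Mt1, Mt2, Sod3, Gpx1 and Gpx3), against 2.66% of all genes, and Nqo1 alone was lower, against 10.6%. With a minimum of 1 FPKM in some library these shares were 3.66% and 14.6%. The median of the members was 0.84, compared with -0.30 for the genes at or above 1 FPKM throughout. After median-of-ratios scaling 5.86% of all genes were higher and 5.13% lower in adult sham cartilage, so that the share of higher genes among those called went from 20% to 53.3%. The folds in sham cartilage were 11.7 for Sod3, 7.72 for Gpx3, 6.77 for Gpx1, 2.53 for Mt2 and 2.40 for Mt1. Nqo1 was 2.85-fold and Cat 1.93-fold lower in adult sham cartilage. The log2 ratios of Sod2 (-0.33) and Hmox1 (-0.31) were small and turned to 0.07 and 0.08 after median-of-ratios scaling.

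In injured cartilage the same 5 members, Mt1, Mt2, Sod3, Gpx1 and Gpx3, were at least 2-fold higher in adult than in young mice, against 1.8% of all genes. No member was at least 2-fold higher in young injured cartilage, against 3.09%. With a minimum of 1 FPKM in some library the shares were 2.48% higher in adult and 4.25% higher in young injured cartilage. The folds of adult over young injured cartilage were 5.99 for Sod3, 4.53 for Gpx1, 4.23 for Gpx3, 3.30 for Mt2 and 2.50 for Mt1. Nqo1 (1.59-fold), Hmox1 (1.42-fold), Cat (1.37-fold) and Sod1 (1.27-fold) were higher in young injured cartilage without reaching 2-fold. The share of the 10 members in all FPKM of a library was 0.127% in sham and 0.2498% in injured cartilage of young mice and 0.297% and 0.611% in that of adult mice. The comparisons share libraries, so their ratios for a gene are not independent of each other.

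**Figure D4:**
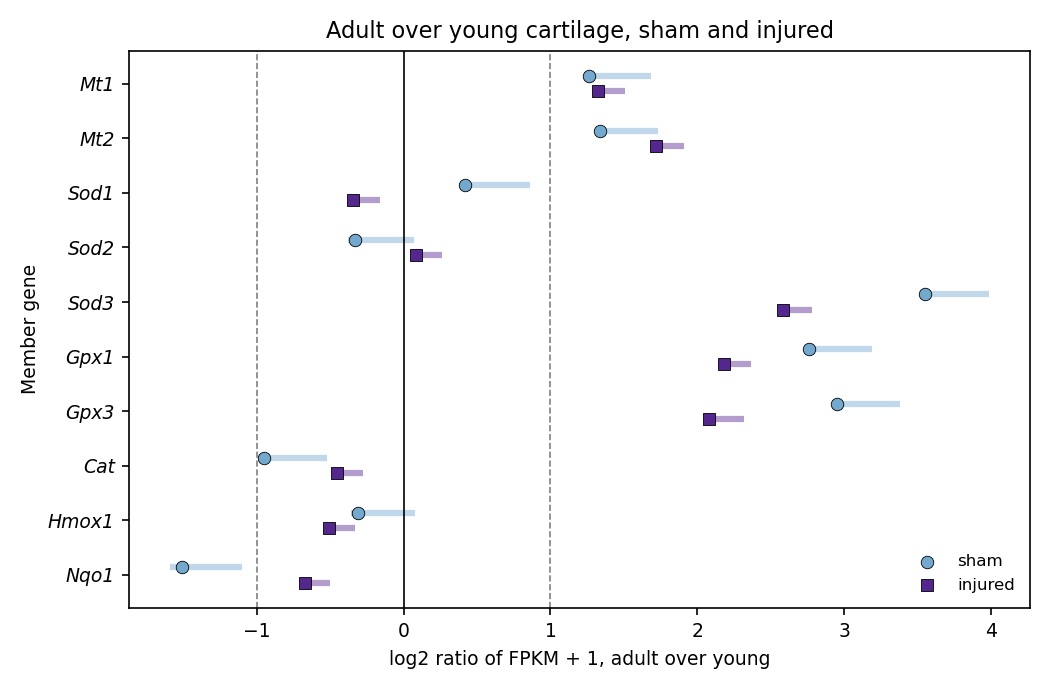
Log2 ratio of FPKM + 1 between adult and young cartilage for each member, in sham (circles) and injured (squares) cartilage. Bars span the values over the deposited scale and 3 other scalings, and dashed lines mark 2-fold. Sod3, Gpx1, Gpx3, Mt1 and Mt2 lie to the right of the 2-fold line in both conditions, Nqo1 lies to the left of it in sham cartilage, and Sod2 and Hmox1 in sham cartilage cross 0 with the scaling.

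Markers of other cell types moved with some of these results. All 10 macrophage markers were at least 2-fold higher in injured cartilage at both ages, as were all 6 endothelial markers, whose sums were 15.8, 78.0, 17.7 and 64.9 FPKM in the sham and injured libraries of young and then of adult mice. In adult mice 5 of 6 endothelial markers passed 2-fold after median-of-ratios scaling and 3 of 6 after quantile normalization, whereas the macrophage counts held with each of the 3 other scalings. Lyz2, the most abundant macrophage marker, had 141.5, 1271, 183.2 and 1090 FPKM in the same order. No macrophage marker was at 0 in any library, and the part of macrophages in the higher level of Hmox1 and the other members was not tested. With age, 6 of 10 macrophage markers were at least 2-fold higher in adult than in young sham cartilage (median log2 ratio 1.02), and 1 was higher in young than in adult injured cartilage. Osteoblast and osteocyte markers summed to 763.1 and 1438 FPKM in young sham and young injured cartilage and to 5110 and 5747 in adult sham and adult injured cartilage, with 7 of 7 at 1 FPKM or more in each library and Ibsp as the most abundant by mean over the libraries. Of these 7, 4 were at least 2-fold higher in adult than in young sham cartilage, whereas Sp7 (-0.01), Phex (-0.45) and Col1a1 (0.14) were not. Skeletal muscle markers summed to 826.4, 645.0, 1453 and 417.8 FPKM, with Acta1 the most abundant by mean. Of the 8 muscle markers, 4 were at least 2-fold higher in adult than in young sham cartilage, and none differed 2-fold between young and adult injured cartilage. After injury 6 of the 8 were at least 2-fold lower in adult mice (median log2 ratio -1.32, and 8 of 8 after median-of-ratios scaling) and 2 in young mice, and the part of muscle in the lower adult Sod1 was not tested. Neutrophil markers summed to 1217, 2501, 1599 and 1940 FPKM, with S100a9 the most abundant. The sums of fibroblast markers were 627.9, 850.3, 346.2 and 888.2 FPKM, led by Col3a1. After injury in adult mice 1 of the 6 fibroblast markers, Col3a1, was at least 2-fold higher and 2 were lower. Rescaling to an equal sum gave 2 higher and 1 lower, and in young mice 1 was higher and 0 lower as deposited. The sums of adipocyte markers, led by Fabp4 in the mean, were between 43.8 and 70.3 FPKM. The part of these cells in the age differences was not tested either.

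Nfe2l2, which encodes NRF2, had 16.9 FPKM in sham and 25.9 in injured cartilage of young mice and 18.6 and 29.6 in that of adult mice. Keap1 had 18.6, 15.3, 19.8 and 17.6 FPKM, and Bach1, which encodes a heme-regulated repressor of Hmox1, had 3.45, 7.14, 1.90 and 4.89. Of 9 redox regulators, none differed 2-fold after injury in young mice and only Bach1 did in adult mice (log2 ratio 1.03, and 0.79 after median-of-ratios scaling). Of all genes, 4.57% were higher and 1.27% lower after injury in young mice, and 6.9% and 1.46% in adult mice. The zinc-sensing factor gene Mtf1 was low throughout, with 1.69, 1.495, 1.16 and 1.54 FPKM.

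Among the genes of metal handling, 9 of 10 were above 0, and Mt4 was listed at 0 in all libraries. Mt3, the neighbour of Mt2 in the cluster, had 2.01 FPKM in sham and 7.89 in injured cartilage of young mice and 5.98 and 20.5 in that of adult mice, the same order of libraries as Mt1 and Mt2 at a far lower level. After injury 2 of the 9 genes were higher in young mice (Mt3 and Cp, the copper-carrying ferroxidase ceruloplasmin) and 3 in adult mice (Mt3 and the zinc importers Slc39a8 and Slc39a14), with none lower. The shares of all genes were 4.57% higher and 1.27% lower in young mice, and 6.9% and 1.46% in adult mice. Slc39a14 had 19.4, 27.9, 7.91 and 41.2 FPKM, with log2 injury ratios of 0.50 (young) and 2.25 (adult). Slc39a8 had 5.18, 8.003, 13.5 and 28.5 FPKM, and its adult log2 ratio of 1.03 was 0.71 after median-of-ratios scaling. Cp was at 18.3, 50.1, 88.0 and 165.3 FPKM and thus, like Gpx3, higher in adult sham than in young injured cartilage. In sham cartilage Mt3, Slc39a8 and Cp were higher and Slc39a14 lower in adult mice, the last at a log2 ratio of -1.20 that was -0.80 after median-of-ratios scaling.

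Of 15 glutathione genes, 2 were higher after injury in young mice and 4 in adult mice, where 1 was lower. Among all genes 4.57% were higher and 1.27% lower in young mice, and 6.9% and 1.46% in adult mice. The young genes, Gstm2 and Ggt5 (log2 ratios 1.21 and 1.74), had a mean below 5 FPKM and were named after their values were seen. In adult mice Gsto1, a glutathione transferase, had a log2 ratio of 1.75, Gsr, which regenerates glutathione, one of 1.27, and Ggt5 one of 1.20. Gclm, the modifier subunit of the first enzyme of glutathione synthesis, had an adult ratio of 1.15 and was likewise named after its value was seen. Gstm1, with 21.0, 21.3, 70.1 and 33.1 FPKM, was lower after injury in adult mice (log2 ratio -1.06). After median-of-ratios scaling Gsr (0.98) and Gclm (0.91) were below 2-fold in adult mice, whereas Gsto1 (1.51) and Gstm1 (-1.39) were not, and Gstm1 was at -0.97, short of 2-fold, after rescaling to an equal sum. In sham cartilage Gstm1 and Gstm2 were higher in adult mice and Gsto1 and Gclm lower, the latter pair at log2 ratios of only -0.79 and -0.68 after median-of-ratios scaling.

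Of 18 other peroxidases and thioredoxin system genes, 1 was higher after injury at each age and none was lower. These counts are close to the shares of all genes, 4.57% higher and 1.27% lower in young and 6.9% and 1.46% in adult mice. The higher genes were Msrb1 in young mice (log2 ratio 1.18) and Txnrd1, the cytosolic thioredoxin reductase, in adult mice (1.18, and 0.88 after median-of-ratios scaling), both named after their values were seen. The peroxidases of the endoplasmic reticulum, Gpx7 and Gpx8, were higher in young than in adult cartilage, opposite to Gpx1 and Gpx3. They passed 2-fold in sham cartilage, where median-of-ratios scaling left Gpx7 at -0.97 for adult over young, and in injured cartilage, where neither passed with any of the 3 other scalings. In the order used above, Gpx8 had 206.0, 216.7, 56.3 and 102.6 FPKM, and Gpx7 had 112.4, 113.3, 41.9 and 52.1. Txnip, an inhibitor of thioredoxin, had 67.4, 77.9, 185.5 and 105.6 FPKM and was highest in adult sham cartilage. Its adult injury ratio, -0.81 on the log2 scale, was -1.14 after median-of-ratios scaling, the only gene of this list past 2-fold in adult mice under that scaling.

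The genes of heme and iron handling, with which HMOX1 shares its substrate and its product, were higher after injury in 3 of 9 cases at each age, and none was lower. For all genes the shares were 4.57% higher and 1.27% lower in young mice, and 6.9% and 1.46% in adult mice. Rescaling to an equal sum left 1 of 9 in young mice, as Ftl1 (0.99) and Fth1 (0.93) fell just below 2-fold. The ferritin chains were among the most abundant genes named here, with 928.2, 1916, 2819 and 5058 FPKM for Fth1 and 703.8, 1518, 356.0 and 1520 FPKM for Ftl1. Ftl1 was higher after injury at both ages (log2 ratios 1.11 and 2.09), whereas Fth1 was at 1.05 in young and 0.84 in adult mice. Hp, which encodes the hemoglobin scavenger haptoglobin, had 16.4, 45.6, 30.6 and 159.0 FPKM, with log2 ratios of 1.42 and 2.34. Trf, encoding transferrin, was above 2-fold in adult mice only (0.75 in young and 1.37 in adult mice). The iron exporter Slc40a1 had 11.2, 20.7, 3.63 and 7.22 FPKM and was more than 2-fold lower in adult than in young cartilage, both sham and injured.

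Of 13 genes of oxidant sources, 12 were above 0 and Nox1 was listed at 0. After injury 7 of the 12 were higher in young mice and 8 in adult mice, none was lower, and the median log2 ratios of 1.37 and 1.57 were the highest of the 7 lists. All genes had shares of 4.57% higher and 1.27% lower in young mice, and 6.9% and 1.46% in adult mice. The higher list genes included the phagocyte NADPH oxidase genes Cybb, with 4.37, 13.0, 2.36 and 9.13 FPKM, and Ncf1, with 6.82, 31.8, 6.53 and 25.03 FPKM. Cyba, Ncf4 and Rac2, which encode further subunits of that oxidase, and Xdh, encoding xanthine oxidoreductase, were also above 2-fold at both ages, with log2 ratios between 1.36 and 1.86 in young and between 1.40 and 1.86 in adult mice. Nos2, encoding the inducible nitric oxide synthase and named after its values were seen, was the additional gene in adult mice, with 0.101 FPKM in sham and 5.17 FPKM in injured cartilage of these mice, compared with 0.00917 and 0.341 FPKM in young mice. Both young values lie below 1 FPKM, where the added 1 FPKM makes a 2-fold ratio impossible (log2 ratio 0.41). The call in adult mice alone therefore does not show a response restricted to them. Most of the oxidase subunits are phagocyte genes, and the summed macrophage markers were higher in the same libraries. Whether these transcripts came from such cells was not tested.

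Since glucocorticoids also induce metallothioneins, 8 glucocorticoid-responsive genes were examined. After injury none was higher and Dusp1 was lower in young mice, and in adult mice Cebpd and Sgk1, the latter named after its value was seen, were higher and none was lower. Across all genes 4.57% were higher and 1.27% lower in young mice, and 6.9% and 1.46% in adult mice. Dusp1, a phosphatase of MAP kinases, had 39.8, 18.9, 180.4 and 95.1 FPKM, with log2 injury ratios of -1.03 (young) and -0.92 (adult). Cebpd, an acute-phase transcription factor gene, had 3.61, 7.91, 4.88 and 23.6 FPKM. Fkbp5, a chaperone gene strongly induced by glucocorticoids, had 3.41, 4.996, 10.5 and 6.40 FPKM. The median log2 injury ratio of the list was -0.32 for young and -0.47 for adult mice. After median-of-ratios scaling the adult count was 1 higher and 3 lower, and after rescaling to an equal sum the young count was 0 higher and 3 lower. The part of glucocorticoids in the levels of Mt1 and Mt2 was not tested.

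**Figure D5:**
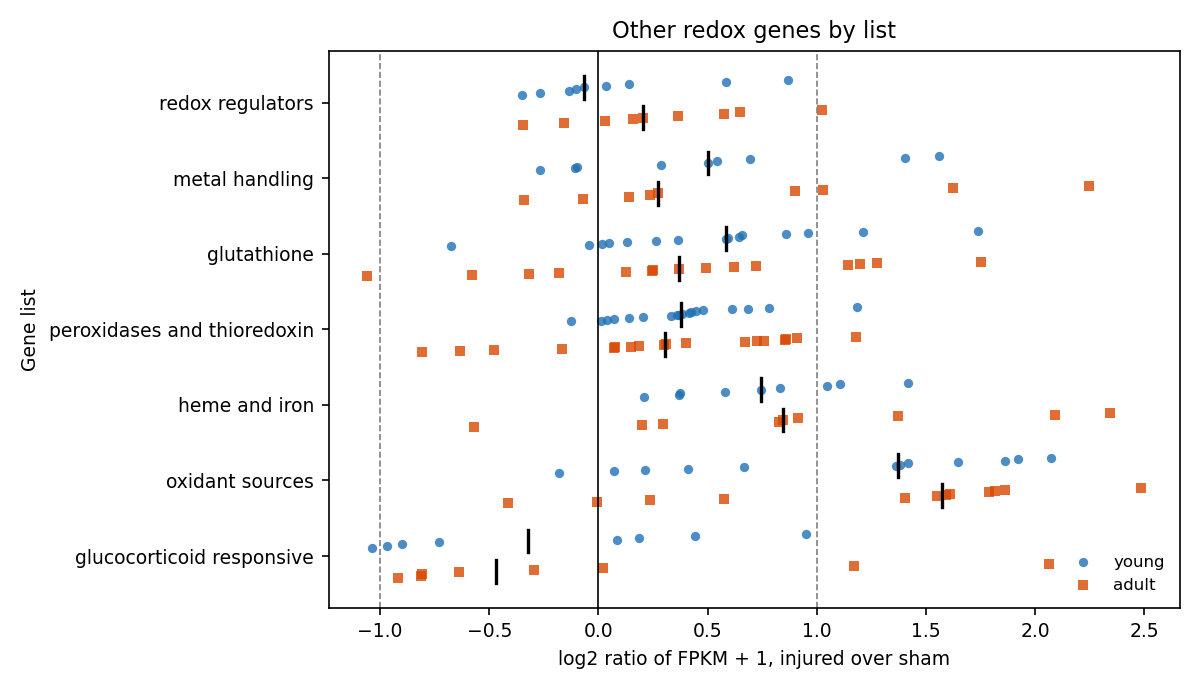
Log2 ratio of FPKM + 1 between injured and sham cartilage for the genes above 0 of 7 lists, in young (circles) and adult (squares) mice, with the median of each list as a black bar and dashed lines at 2-fold. The oxidant sources have the highest medians, 1.37 in young and 1.57 in adult mice, and the glucocorticoid-responsive genes the lowest, -0.32 and -0.47.

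Lastly, the genes with the profile most like that of Mt2, the member with the widest range, were sought over the 4 libraries among 8045 genes that averaged 5 FPKM or more. Likeness was the root mean square difference between log2 profiles of FPKM + 1, each centred on its own mean, where a smaller value means a closer profile. The nearest 3 genes were Saa3, an acute-phase serum amyloid A gene (0.56), Lcn2, which encodes the iron-siderophore binding protein lipocalin 2 (0.67), and Mmp3, the matrix metalloproteinase stromelysin 1 (0.67). Mt1 itself was at a distance of 0.78. Saa3 was at 24.6 FPKM after injury in young and 94.9 FPKM in adult mice, at 0.0719 FPKM in the young sham library, and listed at 0 in the adult sham library. Lcn2 had 64.6, 639.2, 82.7 and 2117 FPKM and Mmp3 had 4.99, 151.5, 41.2 and 673.4 FPKM. All 3 were highest in adult injured and second highest in young injured cartilage, as was Mt2, an order that follows from choosing them by this profile. With only 4 libraries such a likeness is a description of these values, and with a pseudocount of 0.1 FPKM 0 of these 3 genes remained among the nearest 3. For Hmox1, chosen for this comparison after its values were seen, the nearest genes were Ms4a6d (0.21), Mmp13 (0.25) and Clec4d (0.25), of which Mmp13 encodes collagenase 3 and had 25.3, 473.7, 21.2 and 518.2 FPKM.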

How the data were processed

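RNA was measured in 4 pooled cartilage libraries, prepared with a stranded kit after selection of polyadenylated RNA and sequenced in pairs. The authors deposited 1 table of FPKM for 24532 genes on the mouse build mm10, in which fragment numbers are divided by transcript length and by the mapped fragments of the library, so the values depend on the few most abundant genes of each library. The submitters' processing notes name HISAT2 2.1.0, StringTie 1.3.4d, STAR and SAMtools, and their roles, as well as the gene annotation, are not given in the sources used here.

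Each column was matched to its library by name, with 0 columns left unmatched. Log2 ratios of FPKM + 1 were calculated for 4 comparisons, with a threshold of 2-fold, for 18181 genes above 0 in at least 1 library, and percentages of all genes refer to them. With 1 library per group there is no test, and FPKM carry no counting interval. The members and gene lists were chosen with earlier results of these data known. Of list genes, those named have a mean of at least 5 FPKM and a 2-fold difference in 1 or more comparisons, limited to the 25 with the largest log2 ratio, plus 4 regulators, the most abundant marker of each list and the genes nearest to Mt2. Hbb-bs, Sp7, Phex, Col1a1, Mt4 and Nox1 are named outside this rule without a mark, and all other names are marked as chosen afterwards. The values of 1 gene that meets the rule are not reported here. Selenop was matched under its older symbol, and 1 erythroid marker, Ahsp, was not matched. Alternatives were thresholds of 1.5-fold and 3-fold, a minimum of 1 FPKM in some library, pseudocounts of 0.1 and 5 FPKM, quantile normalization, median-of-ratios scaling and rescaling to an equal sum (TPM).

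Shared sequence was measured with 31-base words of the reference transcripts. Promoter sequences and coordinates were from RefSeq on GRCm38.p6, the assembly of mm10. The calculation was tested on simulated data. Python 3.11.15, numpy 2.4.6, pandas 2.3.3, scipy 1.17.1 and matplotlib 3.10.9 were used.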

Additional observations from a re-analysis of the deposited data

Results flagged for a closer look

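For 2 members the injury ratio had opposite signs at the 2 ages, in the deposited values and in each of the 3 other scalings. The log2 ratio of injured over sham cartilage for Sod3, the secreted superoxide dismutase, was 0.60 in young and -0.37 in adult mice. For Cat, the catalase gene, it was -0.15 in young and 0.34 in adult mice. All 4 values were below 2-fold, each rested on 1 library per group, and the difference between the ages was not tested.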

How the results depend on the processing

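No member changed the direction of a 2-fold call under any of the alternatives, and of 64 recalculated member counts 49 equalled the count given above and 15 did not. After injury in adult mice the number higher was 4 in place of 5 with a pseudocount of 5, median-of-ratios scaling, quantile normalization and a 3-fold threshold, and 7 with 1.5-fold, and the number lower was 1 (Sod1) with median-of-ratios scaling and with 1.5-fold. In young mice the number higher was 6 with 1.5-fold and 4 with 3-fold. In adult over young sham cartilage the number higher was 4 with a pseudocount of 5 and 3 (Sod3, Gpx1 and Gpx3) with 3-fold, and the number lower was 2 (Nqo1 and Cat) with 1.5-fold and 0 with 3-fold. In injured cartilage 4 members were higher in adult mice with 3-fold, and 1 (Nqo1) in young mice with 1.5-fold. Nqo1 in adult injury was below 2-fold with a pseudocount of 5 (0.93), median-of-ratios scaling (0.87) and quantile normalization (0.91), and Mt2 in adult over young sham cartilage with a pseudocount of 5 (0.90). Of 240 log2 ratios of members, 10 changed their sign or their side of the threshold, among them Hmox1 over age in sham cartilage with quantile normalization (0.02). Of 60 age differences, 3 changed their sign, among them Mt1 with quantile normalization (0.15), and 5 passed 2-fold. Over pseudocounts, filter, scalings and thresholds, the share of all genes called varied from 1.89% to 9.99% higher and 0.27% to 4.81% lower for injury in young, and from 2.39% to 17.9% and 0.462% to 3.96% in adult cartilage. It varied from 1.01% to 6.54% higher and 2.78% to 25.1% lower in adult over young sham cartilage, and from 1.03% to 9.78% and 0.528% to 5.51% in young over adult injured cartilage. The share of higher genes among those called was 59.7% in adult injury and 48.9% in adult over young sham cartilage with quantile normalization, and in young over adult injured cartilage it was 63.1% as deposited and 49.8%, 53.6% and 53.2% with TPM, median-of-ratios scaling and quantile normalization. The cause of these shifts was not tested. Values near 1 FPKM, such as Mtf1, are limited by depth. No paired analysis was possible because each group has 1 library.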
